A study of Rattus norvegicus with 12 samples.

Results

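Activin is a secreted growth factor of the TGF-beta family, and the genes described here code for its subunits, for the related inhibin alpha subunit, for the follistatins that bind it and for its receptors. They were Inhba, Inhbb, Inha, Fst, Fstl3, Acvr1, Acvr1b, Acvr1c, Acvr2a and Acvr2b, and a probe set belonged to them where the platform annotation gave it 1 gene symbol equal to one of these names. This found 14 probe sets of 9 genes, out of 31042 probe sets and 14217 named genes on the array. No probe set had Acvr1b as its only symbol, so the activin type I receptor ALK4 has no values here. Probe sets with several symbols (436) or none (9780) were left out by this rule.

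RNA was taken from the forebrain of 12 Long Evans rats, all males aged 6 weeks that had lived in single housing for some days beforehand. The control group was 6 animals in their standard laboratory cage. The exposed group was 6 animals that spent 3 hours in an unfamiliar enclosure holding objects of varied colour and form. Each animal was measured on 1 Affymetrix rat array. Values are the deposited intensities of probe sets, linear and in arbitrary units. Changes are log2 differences (exposed minus control) ± the standard error from limma, which fits a linear model to every probe set. Probe sets with a Benjamini-Hochberg adjusted p under 0.05 are said to have risen or fallen. Control animal 4 and exposed animals 3 and 5 were set apart in an earlier analysis of these data, and calls that change without these 3 arrays are given both ways. Where a gene had several probe sets, the one with the highest mean over the 12 animals is called its brightest.

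Activin A is a dimer of the beta A subunit made from Inhba, and activin B one of the beta B subunit made from Inhbb. A beta subunit joined to the alpha subunit made from Inha gives inhibin, which opposes activin. Activin binds a type II receptor (Acvr2a or Acvr2b), which then switches on a type I receptor, and that receptor phosphorylates the transcription factors Smad2 and Smad3. Follistatin and the follistatin-like protein of Fstl3 bind activin outside the cell and keep it from its receptors. In the forebrain, activin A is known as a factor whose gene neurons switch on when they are strongly active, and it has been linked to synaptic plasticity and to neuroprotection.

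Inhba was the member that rose in the forebrain of exposed animals, and no other member passed the test in either direction. Its brightest probe set was 3.18-fold higher, while the 12 probe sets of the other 8 genes had changes between -0.13 and 0.17. A dimmer Inhba probe set had a change of 0.40 and did not pass (adjusted p = 0.0834 in limma). The platform annotation listed a RefSeq mRNA for the dimmer probe set and no sequence for the brightest. The call rests on the probe set without a listed sequence. Of the 14 probe sets, 1 was higher and 0 were lower at an adjusted p under 0.05 in limma, and 5 had an unadjusted p under 0.05. Over all probe sets, 1.97% were higher, 0.599% lower and 13.2% under an unadjusted p of 0.05. The median change was 0.08 over the 14 probe sets, of which 11 had a positive change, and 0.00 over all probe sets. In a sample of whole tissue, a change in the number of cells of a type and one in RNA per cell cannot be told apart.

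Because Inhba carried the change, the 250 bases before the start of its RefSeq transcript are shown, at chr17:53804509-53804758 on the minus strand of the rat build GRCr8, written 5′ to 3′. The capitals mark the letters TGATGTCA, a match to TGANGTCA, which is the cAMP response element TGACGTCA with 1 free base. This pattern was chosen after the sequence was seen.

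Inhba: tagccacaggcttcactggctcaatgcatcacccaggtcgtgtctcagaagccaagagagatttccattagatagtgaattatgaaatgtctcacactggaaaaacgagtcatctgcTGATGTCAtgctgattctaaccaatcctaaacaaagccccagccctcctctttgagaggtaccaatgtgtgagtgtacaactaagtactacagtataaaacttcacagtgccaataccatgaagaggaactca

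The match begins 133 bases before the start. Searched on both strands (TGANGTCA or TGACNTCA), the pattern was present in the same window of 8.88% of 33469 RefSeq promoters, and among the 8 members with an entry it was present only for Inhba. The unaltered TGACGTCA, which this pattern includes, was in 1.59% of all windows and the AP-1 letters TGANTCA in 6.34%, and neither was in the window of any of the 8 members. The TATA box letters TATAAA (or TTTATA) stood in the windows of Inhba and Fstl3 and in 12.9% of all. The letters GGGCGG (or CCGCCC) stood in the windows of 5 of the 8 members, not including Inhba, and in 30.5% of all. The Inhba window held 43.6% G and C against a median of 51.2% over all windows, and the Inhbb window 86.8%. RefSeq's record of Inhba reaches 6434 bases further upstream than this start, so the window lies inside the annotated gene. The same holds for Acvr2a (643 bases), and in part for Acvr2b (174), Acvr1c (98) and Acvr1b (14). The RefSeq transcript of Inhbb begins at its start codon. A match of letters is a description, not evidence that a factor binds there.

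In the 6 control animals the brightest Inhba probe set (1383486_at) read 378, 339, 356, 323, 242 and 246, in the order of the animal numbers in the labels. In the 6 exposed animals it read 1239.6, 1172, 1068, 877, 855 and 775. Every exposed animal lay above every control animal, and the lowest exposed value stood well clear of the highest control value. The mean went from 314 ± 57.4 (SD, n = 6) to 998 ± 189 (SD, n = 6), a log2 change of 1.67 ± 0.15 with a 95% interval from 1.33 to 2.01 (adjusted p = 0.000201 in limma). Without control animal 4 and exposed animals 3 and 5 it was 1.70 (adjusted p = 0.00797). The exact two-sided permutation test over the 924 possible group assignments gave p = 0.00216, which is the lower limit of that test. Among the 14217 genes, taken at their brightest probe sets, Inhba had the 6th largest increase. Groups that did not overlap, with exposed animals higher, were seen for 1 of the 14 member probe sets and for 1.94% of all probe sets, and with exposed animals lower for 0 of the 14 and for 0.702% of all.

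**Figure D1:**
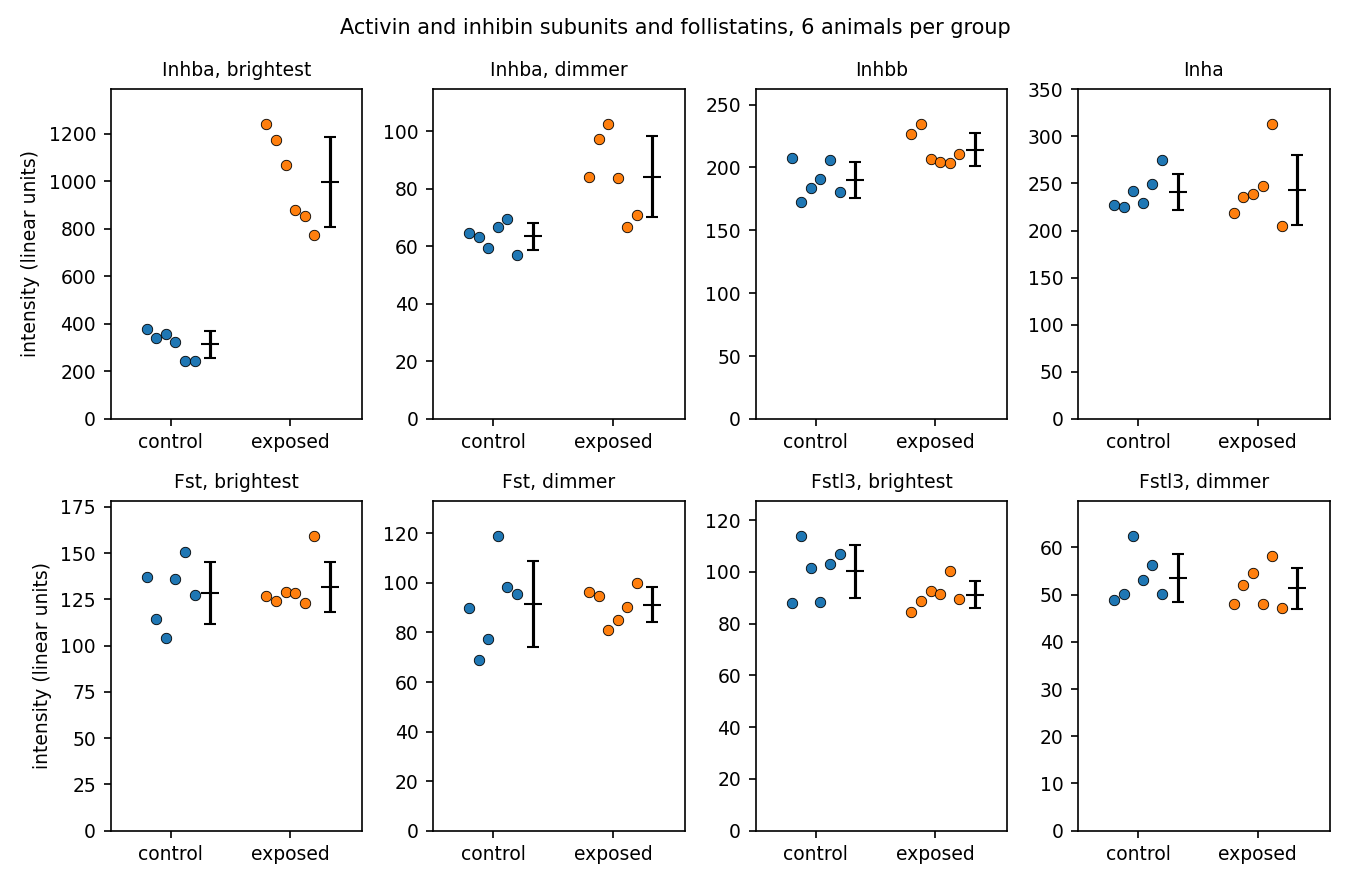
Intensity in linear units (vertical axis, from 0) of the 8 probe sets of Inhba, Inhbb, Inha, Fst and Fstl3, with 1 point for each of the 6 control and 6 exposed animals and a bar for mean ± SD. The groups of the brightest Inhba probe set do not overlap (242 to 378 against 775 to 1239.6), while those of the other 7 probe sets do.

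A dimmer Inhba probe set (1369012_at) gave a much smaller difference. It read 64.7, 63.4, 59.6, 66.6, 69.6 and 56.9 in control animals and 84.1, 97.5, 102, 83.9, 66.7 and 71.1 in exposed animals. Exposed animal 5 was within the control range and the other 5 above it. The log2 change was 0.40 ± 0.10 (95% interval 0.17 to 0.63, adjusted p = 0.0834 in limma), and without exposed animal 5 it was 0.46 (adjusted p = 0.0336). With no floor under the low values, a step described under the processing, its adjusted p was 0.0391 at the same change. The difference in change between the dimmer and the brightest probe set was -1.27 ± 0.14 (adjusted p = 0.000916 in limma over 6609 such pairs, of which 0.847% passed). All of its values lay between 56.9 and 102, close to the floor of 53.9 set for dim probe sets.

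Inhbb, the beta B subunit, did not pass. Its values were 208, 172, 184, 191, 206 and 181 in control animals and 226, 234, 207, 204, 203 and 210.4 in exposed animals. All 6 exposed animals lay above the control median of 187, and 3 of them lay above every control animal, so the groups overlapped. The log2 change was 0.17 ± 0.06 with a 95% interval from 0.05 to 0.30 (adjusted p = 0.173 in limma), and its adjusted p ran from 0.116 to 0.341 over 22 alternative settings of the analysis. At the brightest probe sets, the change of Inhba exceeded that of Inhbb by 1.49 on the log2 scale. In the per-animal difference, 6 of 6 exposed animals exceeded all controls (exact two-sided permutation p = 0.00216, also 0.00216 after Benjamini-Hochberg over 3 such differences). This p is the lower limit of the test. The brightest Inhba probe set had reached it alone, so it is not separate evidence. The dimmer Inhba probe set had a change of 0.40, and its excess over Inhbb, Inha or Fst was not tested.

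Inha, the alpha subunit of inhibin, was at the same mean in both groups. Control animals read 227, 225, 243, 229, 249 and 275, and exposed animals 218, 236, 239, 247, 313 and 205. Exposed animals gave both the highest and the lowest value of the 12. The log2 change was 0.00 ± 0.09 (95% interval -0.21 to 0.21, adjusted p = 1.00 in limma). At the brightest probe sets, the change of Inhba exceeded that of Inha by 1.67 (exact two-sided permutation p = 0.00216, 6 of 6 animals). This p is again the lower limit that Inhba reached alone.

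Of the antagonists, Fst codes for follistatin, which binds activin nearly irreversibly. Its brightest probe set (1387843_at) read 137, 114, 104, 136, 150.5 and 127 in control animals and 127, 124, 129, 129, 123 and 159 in exposed animals. The control animals spanned a wider range than 5 of the exposed animals, and exposed animal 6 was the highest of all. The log2 change was 0.04 ± 0.09, with a 95% interval from -0.16 to 0.25 (adjusted p = 1.00 in limma). The dimmer Fst probe set (1372750_at) ran from 69.1 to 119 in control animals and from 81.0 to 99.9 in exposed animals, a change of 0.01 ± 0.12. Without control animal 4 and exposed animals 3 and 5, the changes were 0.093 and 0.14 and neither passed. At the brightest probe sets, the change of Inhba exceeded that of Fst by 1.62 (exact two-sided permutation p = 0.00216, 6 of 6 animals). Here too the p is the lower limit that Inhba reached alone.

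Fstl3 codes for a secreted glycoprotein that binds activin as follistatin does. Its brightest probe set (1379440_at) read 88.2, 114, 101, 88.5, 103 and 107 in control animals and 84.5, 88.7, 92.5, 91.5, 100.4 and 89.7 in exposed animals. The exposed mean of 91.2 ± 5.30 (SD, n = 6) was below the control mean of 100.3 ± 10.2 (SD, n = 6), with 1 exposed animal below every control animal. The log2 change of -0.13 ± 0.07 did not pass (95% interval -0.28 to 0.02, adjusted p = 0.456 in limma), nor did that of -0.21 without control animal 4 and exposed animals 3 and 5 (0.243). The other Fstl3 probe set (1370120_at) was at the floor in 4 control and 4 exposed animals and gives no usable comparison.

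**Figure D2:**
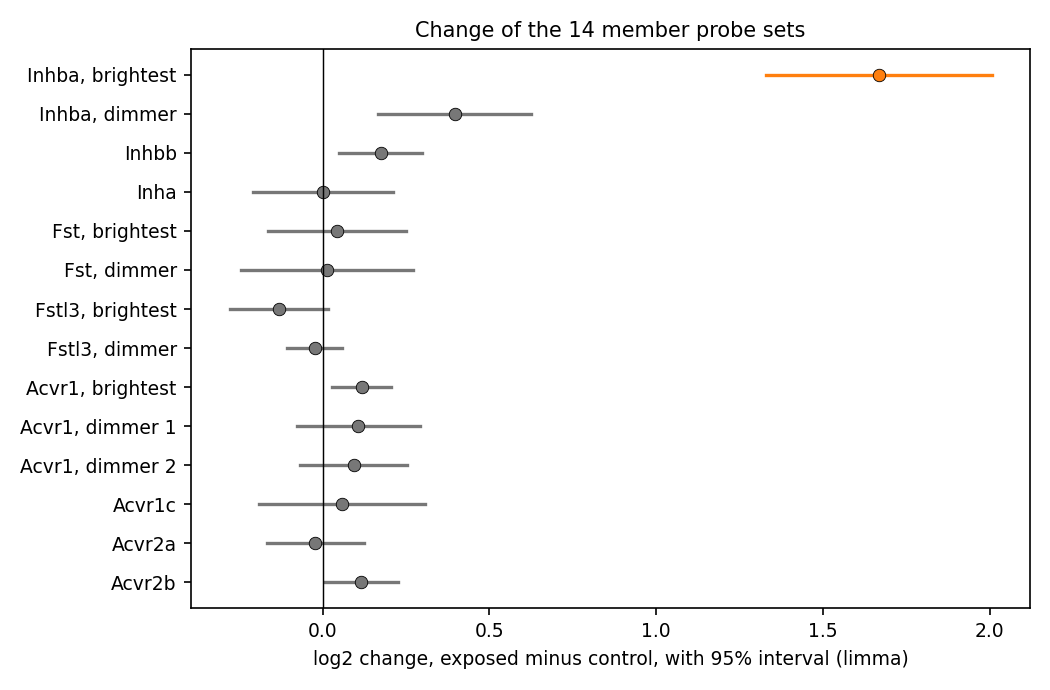
Log2 change, exposed minus control (horizontal axis), of the 14 member probe sets, as points with the 95% interval of the limma fit. The orange point marks the brightest Inhba probe set at 1.67, and every other interval except that of the dimmer Inhba probe set lies between -0.28 and 0.31.

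Among the type I receptors, Acvr1 codes for ALK2, which mainly carries BMP signals and also binds activin. Its brightest probe set (1379217_at) read 590.2, 664, 588, 546, 562 and 588 in control animals and 659, 641, 639, 632, 628 and 629 in exposed animals. The exposed animals lay close together and above 5 of the 6 control animals, while control animal 2 was the highest of the 12. The log2 change was 0.12 ± 0.04 (95% interval 0.03 to 0.20, adjusted p = 0.192 in limma), and without control animal 2 it was 0.15 with an adjusted p of 0.00980. The 2 dimmer Acvr1 probe sets (1385069_at and 1398277_at) had changes of 0.11 ± 0.08 and 0.09 ± 0.07, with adjusted p of 0.738 and 0.734 in limma. In both of them 4 exposed animals exceeded all controls, while exposed animal 6 was lower than all controls. Neither moved apart from the brightest one (adjusted p of the difference 0.994 and 0.967).

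Acvr1c codes for ALK7, a type I receptor of activin B and nodal. It read 460.3, 471, 413, 382, 399 and 371 in control animals and 449, 455, 506, 460, 308 and 441 in exposed animals. Exposed animal 5 was the lowest of the 12 and exposed animal 3 the highest, and the groups overlapped. The log2 change was 0.06 ± 0.11 (95% interval -0.19 to 0.31, adjusted p = 1.00 in limma).

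Both type II receptors, to which activin binds first, were measured by 1 probe set each. Acvr2a read 548, 454, 522, 577, 612 and 556 in control animals and 523, 567, 495, 553, 511 and 562 in exposed animals, a change of -0.02 ± 0.07 (95% interval -0.17 to 0.12, adjusted p = 1.00 in limma). The exposed values lay wholly inside the control range. Acvr2b read 319, 354, 329, 352, 327 and 363 in control animals and 372, 364, 337, 394, 400.3 and 349.6 in exposed animals. In 4 exposed animals it was above every control animal, and the change was 0.12 ± 0.05 (95% interval 0.01 to 0.23, adjusted p = 0.340 in limma). Over the 12 probe sets of the 8 genes other than Inhba, the 95% intervals reached from -0.28 to 0.31, that is, from 0.824-fold to 1.24-fold.

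**Figure D3:**
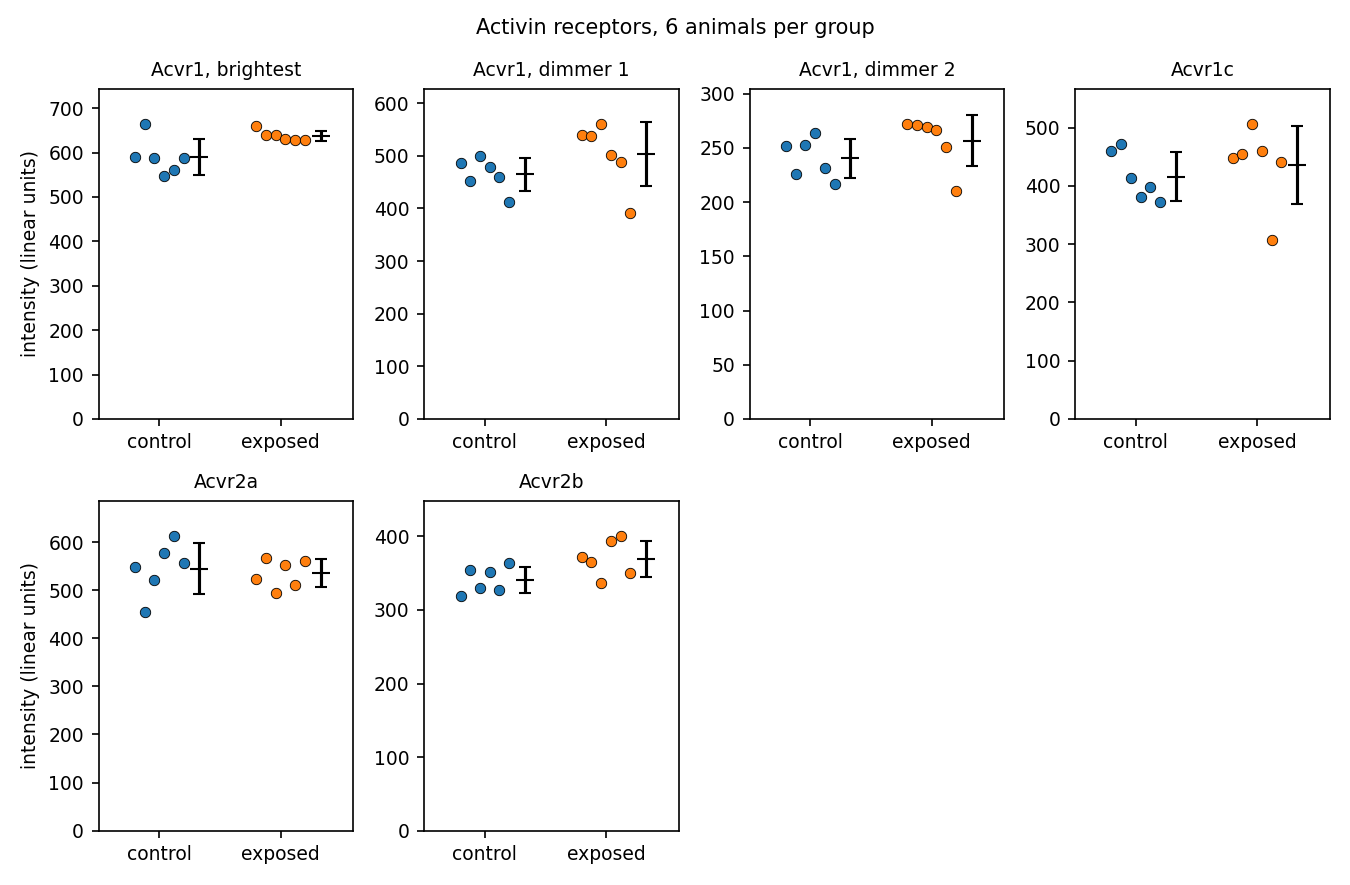
Intensity in linear units (vertical axis, from 0) of the 6 probe sets of Acvr1, Acvr1c, Acvr2a and Acvr2b, with 1 point for each of the 6 control and 6 exposed animals and a bar for mean ± SD. The groups overlap in all 6, and control animal 2 is the highest of the 12 at the brightest Acvr1 probe set (664).

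Around these genes, 58 of 71 listed genes of the wider pathway had a probe set, each taken at its brightest. In limma, 6 of the 58 rose and 1 fell, where 2.62% of all genes were higher and 0.844% lower. Without control animal 4 and exposed animals 3 and 5, 4 rose and 0 fell. At an unadjusted p under 0.05 there were 18 of the 58, against 15.9% of all genes, and the median change was 0.02 against 0.00 over all genes. The genes that passed belonged to the intracellular part of the pathway and to its known targets, and none was a ligand, receptor or secreted antagonist. The lists of ligands, receptors and antagonists held 15, 9 and 9 genes. At the shares over all genes, so few genes would give few calls or none, so their lack is not a result about them. The lists were chosen with earlier results of these data known.

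Of 15 other ligands of the activin and BMP branches, 0 rose and 0 fell, and 1 had an unadjusted p under 0.05 (median change 0.02). That gene was Tgfb3, a TGF-beta isoform, which went from 199 ± 16.1 to 239 ± 20.2 (SD, n = 6), with 5 of 6 exposed animals above every control. Its change was 0.26 ± 0.07 (adjusted p = 0.0871 in limma). It passed without exposed animal 6 (adjusted p = 0.0412) and when the 40% dimmest probe sets were left out (0.0404). The BMP ligand Bmp7 had a change of -0.12 ± 0.06 and Tgfb1 one of 0.19 ± 0.09, with adjusted p of 0.386 and 0.392.

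Of 9 other receptors and coreceptors, 0 rose and 0 fell in limma, and 2 had an unadjusted p under 0.05 (median change 0.03). Synj2bp, a scaffold protein that binds the type II activin receptors, went from 988 ± 49.0 to 1075 ± 24.6 (SD, n = 6). Its groups did not overlap, as for 2.5% of all genes with exposed animals higher and 0.879% with exposed animals lower, but its change of 0.12 ± 0.03 did not pass (adjusted p = 0.0788). Dimmer Synj2bp probe sets had changes of -0.0030, 0.031 and 0.11, and none passed. The TGF-beta coreceptor endoglin (Eng) had a change of 0.19 ± 0.06 (adjusted p = 0.156), and the type I receptor gene Acvrl1 one of 0.13 ± 0.06 (adjusted p = 0.418). Of 9 secreted antagonists, 0 rose and 0 fell, and 1 had an unadjusted p under 0.05 (median change -0.0094). The follistatin-like genes Fstl4, Fstl1 and Fstl5 had changes of 0.13 ± 0.05, 0.20 ± 0.11 and -0.06 ± 0.06, with adjusted p of 0.308, 0.505 and 0.841. Without control animal 4 and exposed animals 3 and 5, Fstl4 was at 0.079 and Fstl1 at 0.095, and Fstl5 turned to 0.024. Dimmer Fstl1 probe sets had changes of 0.0016 and 0.092 over the 12 animals, and neither passed.

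Of 16 SMAD proteins and regulators, 3 rose and 1 fell, and 10 had an unadjusted p under 0.05 (median change 0.08). Smad3, the transcription factor that activin receptors phosphorylate, ran from 458 to 539 in control animals (median 510.3) and from 630.1 to 686 in exposed animals (median 650.2). The groups did not overlap. Its mean went from 503 ± 34.6 to 653 ± 18.7 (SD, n = 6), a change of 0.38 ± 0.04 (1.30-fold, adjusted p = 0.000930 in limma). A dimmer Smad3 probe set had a change of 0.15 ± 0.10 (adjusted p = 0.610) and did not differ from the brightest at the threshold (adjusted p = 0.560). Smad2, Smad4, Smad7, Pmepa1, Id2 and Id3 fall outside the rule for named genes and were picked after their values were seen. Smad2, phosphorylated by the same receptors, had a change of 0.01 (adjusted p = 1.00), and Smad4, the common partner, one of 0.02 (adjusted p = 0.897).

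Skil, which codes for the SMAD corepressor SnoN, went from 3808 ± 95.3 to 4277 ± 159 (SD, n = 6), with 6 of 6 exposed animals above every control (change 0.17 ± 0.03, adjusted p = 0.00592 in limma). Smurf1, a ubiquitin ligase of SMAD proteins and receptors, went from 463 ± 10.3 to 531 ± 35.8 (change 0.19 ± 0.04, adjusted p = 0.0390). In 5 of 6 exposed animals it lay above every control animal, and exposed animal 6 was inside the control range. A dimmer Smurf1 probe set had a change of 0.05 (adjusted p = 0.844) and did not differ from the brightest at the threshold (adjusted p = 0.517). The call of Smurf1 was lost in 14 of 22 alternatives, among them 11 of the 12 fits with 1 animal left out (adjusted p from 0.0563 without control animal 6 to 0.0932 without exposed animal 1). It held without exposed animal 6. It was also lost with RNA quality as a covariate (0.149) and without control animal 4 and exposed animals 3 and 5 together (0.234). Tgif2, a corepressor, fell by 0.18 on the log2 scale (adjusted p = 0.0182) at values from 52.2 to 64.9, next to the floor, with 4 of 12 values at it. Its call was lost after quantile normalization (0.0598) and without those 3 animals (0.102).

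Of 13 genes known as SMAD targets, 4 rose and 0 fell, and 6 had an unadjusted p under 0.05 (median change 0.14). Junb, an AP-1 subunit that is also an immediate early gene of active neurons, ran from 475 to 634 in control animals and from 1032 to 1322 in exposed animals (2.10-fold, adjusted p = 4.18e-05 in limma). Cdkn1a, an inhibitor of the cell cycle that glucocorticoids and stress also induce, rose 1.42-fold (adjusted p = 0.00251). A dimmer Cdkn1a probe set, next to the floor at a mean log2 intensity of 5.76, had a change of 0.02 (adjusted p = 0.814) and moved apart from the brightest (adjusted p = 0.00303). Id1, a helix-loop-helix inhibitor that is mainly a BMP target, rose 1.27-fold (adjusted p = 0.0386), with a change of 0.55 among animals 1 to 3 and 0.14 among animals 4 to 6. The Id1 call was lost in 11 of 22 alternatives, among them those without control animal 1, 2, 3 or 4 or exposed animal 1, 2, 3 or 6 (adjusted p 0.0533 to 0.0848), with RNA quality as a covariate (0.0828) and without control animal 4 and exposed animals 3 and 5 (0.116). Id2 and Id3, on the same list, had changes of -0.18 (adjusted p = 0.487 in limma) and -0.11 (0.545). Skil belongs to this list too. Smad7 and Pmepa1, negative feedback genes of the pathway, had changes of 0.14 (adjusted p = 0.453) and 0.18 (adjusted p = 0.192).

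**Figure D4:**
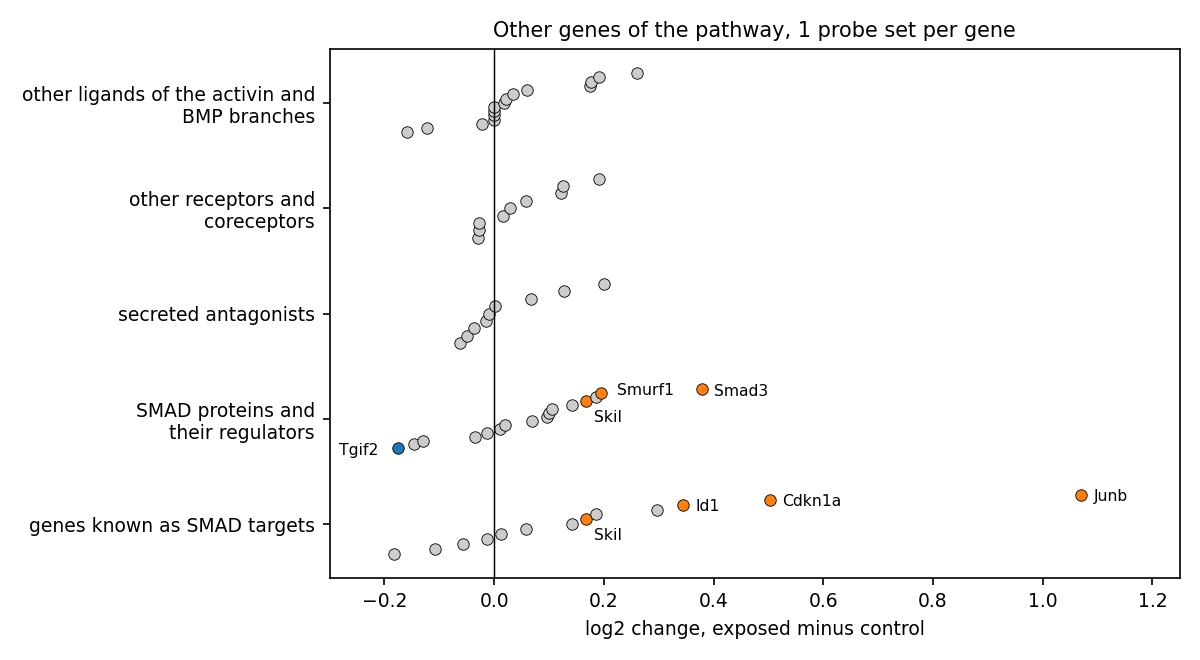
Log2 change, exposed minus control (horizontal axis), of the 58 other pathway genes in 5 lists, 1 point per gene and list, with genes in 2 lists drawn in both. Coloured and named points passed at an adjusted p under 0.05, orange for higher and blue for lower, and they lie in the SMAD and SMAD target lists only, with Junb at 1.07 the largest.

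Within each group, Inhba also differed between animals numbered 1 to 3 and those numbered 4 to 6. In control animals it ran from 339 to 378 in the first set and from 242 to 323 in the second, and in exposed animals from 1068 to 1239.6 and from 775 to 877. The sets did not overlap in either group, and the difference between them was 0.42 on the log2 scale in control and 0.47 in exposed animals. What the numbers mean is not given by the labels. The change with exposure was 1.70 in the first set and 1.64 in the second. The split was chosen after an earlier analysis of these data had found other probe sets and gene lists to differ along it, and no test of it is given. Of 13 marker lists of cell types and regions, that of astrocytes was apart in the same way in both groups. Its mean log2 intensity was 12.66 to 12.71 in control animals numbered 1 to 3 and 12.59 to 12.61 in those numbered 4 to 6, and 12.64 to 12.70 against 12.54 to 12.61 in exposed animals. RNA quality, read as the log2 gap between 3 prime and 5 prime control probe sets, was 0.41 to 0.44 against 0.33 to 0.37 in control animals and overlapped in exposed animals. The part of either in the Inhba values was not tested.

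Across the 12 animals, the genes whose log2 profile was most like that of the brightest Inhba probe set were Gne, Tpm4, Pfkfb3, Dusp2 and Zdbf2, with Pearson r from 0.981 to 0.985. After the group means were taken away, r was 0.852 for Gne, 0.842 for Tpm4, 0.872 for Pfkfb3, 0.808 for Dusp2 and 0.767 for Zdbf2. These are descriptions of genes chosen for a high r, over animals that share the group difference and the number sets above. Gne, the enzyme that starts sialic acid synthesis, went from 528 ± 20.9 to 718 ± 51.4 (SD, n = 6), and Dusp2, a phosphatase of MAP kinases, from 190.1 ± 19.2 to 333 ± 31.7. Pfkfb3 codes for a regulator of glycolysis and Tpm4 for a tropomyosin. Among the other members, taken at their brightest probe sets, r with Inhba over the 12 animals ran from -0.60 for Fstl3 to 0.73 for Inhbb, and after removal of the group means from -0.52 for Fst to 0.49 for Acvr1c.

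**Figure D5:**
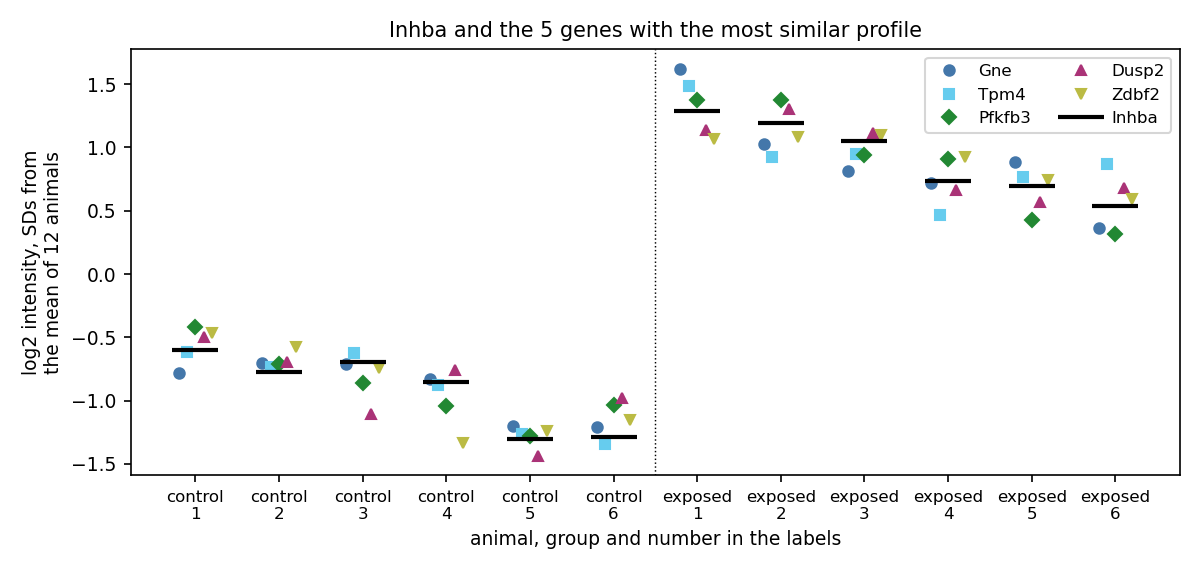
Log2 intensity in each of the 12 animals (horizontal axis), in SDs from the mean of all 12 (vertical axis), for Inhba (black bars) and the 5 genes most like it (coloured symbols). In both groups Inhba is higher in animals 1 to 3 than in animals 4 to 6 (339 to 378 against 242 to 323 in control animals).

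Array medians ran from 235 to 245 in intensity. Of the forebrain markers, 8 of 8 for neurons, 6 of 8 for cortex and hippocampus and 7 of 8 for striatum had a probe set, and none of these was at the floor on every array. The pituitary, a gland that also makes activin subunits and follistatin, had 7 markers with a probe set. Of these, Prl and Pou1f1 were at the floor on every array and the rest were not. The summed intensity of the list was 504 to 621 in control and 506 to 807 in exposed animals. In limma 0 members of the 13 marker lists passed. The summed intensities of the 2 groups overlapped in every list. RNA quality was 0.39 ± 0.05 (SD, n = 6) in control and 0.45 ± 0.07 in exposed animals on the log2 scale, and with it as a covariate the change of Inhba was 1.54 (adjusted p = 0.00137).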

How the data were processed

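The authors deposited 1 table of probe set intensity per array, on a linear scale, from 12.6 to 34828. How it was normalized and which software made it were not stated in the sources used here. The arrays' log2 medians lay within 0.06 and their upper quartiles within 0.07, below the limit of 0.1 set for renormalization, so the deposited intensity was used as it was. Intensities were raised to a floor of 53.9, the 20th percentile, and log2 transformed, and 5224 probe sets were at the floor on all arrays. Groups were compared with limma 3.58.1 in R 4.3.3 (lmFit, then eBayes with a mean-variance trend), with Benjamini-Hochberg adjustment over 31042 probe sets; 57 array control probe sets were left out. Exact permutation tests were counted over all possible assignments in Python 3.11.15. The routine was checked with scipy 1.17.1 on data with a known answer. The fit was tested on simulated data. Names came from the platform annotation, which gave 20826 probe sets 1 symbol, 436 several and 9780 none, and only the first were named. Promoters came from RefSeq (GRCr8), where 8 of 10 members had an entry. The deposited values do not state the genome build behind the probes. The number of arrays limits the precision.

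The members, lists and tests were chosen with earlier results of these data known. Named genes were every member probe set, each pathway gene that passed and up to 3 with the smallest p of each list, and the 5 genes most like Inhba. Each array is a separate animal in the labels. The animal numbers recur in both groups. Deviations of same-numbered animals correlated between -0.08 and 0.16 over the probe sets above the floor, with 2 of 6 pairs over 0.1. The numbers were therefore not taken as pairs, although Inhba itself was higher in animals 1 to 3 than in animals 4 to 6 in both groups. In all, 22 alternatives were run, 12 of them leaving out 1 animal.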

Additional observations from a re-analysis of the deposited data

Results flagged for a closer look

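In 4 of 57 groups of 6 animals tested, 1 animal lay far from the others, with a gap to its nearest neighbour that was a large part of the group's range (above Dixon's 95% critical value). Chance alone gives about 1 in 20 groups. The brightest Fst probe set read 159 in exposed animal 6 and 123 to 129 in the other exposed animals (gap 0.814 of the range). The dimmer Acvr1 probe set 1398277_at read 211 in the same animal and 251 to 272 in the others (0.686). Smurf1 read 462 in the same animal and 523 to 558 in the others (0.650). Acvr1c read 308 in exposed animal 5 and 441 to 506 in the others (0.727).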

How the results depend on the processing

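The brightest Inhba probe set passed in 22 of 22 alternatives (1.54 to 1.74, adjusted p at most 0.00797 in limma). Its excess over Inhbb, Fst and Inha held in the 18 alternatives run for it. Each p was the lower limit of its exact permutation test, at most 0.03125 with same-numbered animals as pairs. These runs are therefore not evidence separate from the Inhba call. The tests without the trend, with number sets, with RNA quality and without the 40% dimmest probe sets were not run. Of 30 single results, 16 kept direction and side of the threshold in all alternatives.

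With the replicate block, which treats same-numbered animals as pairs, 359 probe sets were higher and 76 lower, and 3 pathway genes were higher and 0 lower: the calls of Skil (adjusted p = 0.0853), Tgif2 (0.0690), Smurf1 (0.168) and Id1 (0.217) were lost. Lower pathway genes were also 0 after quantile normalization, with the floor at the 40th percentile, without the 40% dimmest probe sets and without control 4 and exposed 3 and 5 together. Lower probe sets were 72 with RNA quality as a covariate and 82 without those 3 arrays. Higher member probe sets were 2 with no floor. Without the 40% dimmest probe sets, 0 member pairs moved apart, since the dimmer Inhba probe set was left out.

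Direction reversed for results that never passed. Inha was -0.0014 after quantile normalization and -0.10 without the 3 arrays. Acvr2a was 0.058 with RNA quality and 0.040 without the 3 arrays, Acvr1c -0.034 with RNA quality, and Fstl5 0.024 without the 3 arrays. The cause was not tested.

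With 1 animal left out, probe sets numbered 453 to 622 higher and 103 to 182 lower (103 without control 3, 106 without exposed 1, 112 without control 5, 117 without control 6). Higher members numbered 1 to 2, with Acvr1 added without control 2 and the dimmer Inhba without exposed 5. Inha ran from -0.075 to 0.047, Fst from -0.014 to 0.092 (dimmer -0.063 to 0.094), the dimmer Fstl3 from -0.041 to 0.0092 and Acvr2a from -0.073 to 0.013. At the 40th percentile floor the dimmer Inhba and Fst, both Fstl3, Acvrl1 and Tgif2 had no value.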
